A study of Homo sapiens with 9 samples.

Results

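The genes described here encode the Polycomb repressive complex PRC2 and the enzymes that act with or against it in MM.1S, a long-established line of human multiple myeloma cells. The 10 genes were taken by name as EZH2, EZH1, EED, SUZ12, JARID2, PHF19, MTF2, NSD2, KDM6A and KDM6B. Each of them had 1 transcript cluster, the unit in which the array summarises the many probes of a gene, and none shared a cluster with another symbol. They are 10 of 22465 genes with a cluster of a single symbol, and all 10 passed the filter on low values, which left 15842 genes for testing. Cells were grown in RPMI1640 medium with serum and exposed for 24 h to DMSO as the solvent control or to one of a pair of compounds dissolved in it, HL13 or LBH589, at 5 nM each. LBH589 is panobinostat, which blocks histone deacetylases, and HL13 is known from the labels by its code alone. Each group had 3 arrays that the labels call biological replicates without naming the cultures, so each p rests on the scatter among these arrays alone, part of which may be technical. All samples come from 1 line, and in bulk RNA fewer cells that express a gene and less RNA per cell cannot be told apart.

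PRC2 places methyl groups on H3K27, a lysine in the tail of histone H3, which is a mark of silenced genes. EZH2 or its paralog EZH1 carries the catalytic site, EED binds the finished mark and stimulates the enzyme, and SUZ12 holds the complex together. JARID2 and the Polycomb-like proteins PHF19 and MTF2 are accessory subunits that guide the core to chromatin and exclude each other from it. NSD2 methylates H3K36, another lysine of the same tail, and PRC2 works poorly on histones that carry that mark. NSD2 is overexpressed in myelomas whose translocation places it under immunoglobulin control. KDM6A and KDM6B remove the mark from H3K27. MM.1S is known for a translocation that drives the transcription factor MAF rather than NSD2.

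The starts of the genes that moved are shown first, because short words of the same kind lie in genes that rose and in genes that fell. The RefSeq promoter windows (GRCh38.p14, from 250 bases before to 50 after a start) were searched on both strands for words bound by E2F factors, which drive cell cycle genes. The words were TTTCCCGC, TTTGGCGC, TTTCGCGC and TTTGCCGC. All 10 genes were found by symbol, with 14 windows. An E2F word was present in 6 of the 14 windows, 1 each in EZH2, EZH1, SUZ12, PHF19, MTF2 and NSD2, and in 3.31% of the 35116 windows of that length in the table. Printed below, with the E2F word in capitals, are EZH2 (chr7:148884242-148884541, minus strand), MTF2 (chr1:93079033-93079332, plus strand), PHF19 (chr9:120877139-120877438, minus strand, 1 of its 2 windows, which lie downstream of the first start of the gene) and NSD2 (chr4:1871143-1871442, plus strand).
EZH2: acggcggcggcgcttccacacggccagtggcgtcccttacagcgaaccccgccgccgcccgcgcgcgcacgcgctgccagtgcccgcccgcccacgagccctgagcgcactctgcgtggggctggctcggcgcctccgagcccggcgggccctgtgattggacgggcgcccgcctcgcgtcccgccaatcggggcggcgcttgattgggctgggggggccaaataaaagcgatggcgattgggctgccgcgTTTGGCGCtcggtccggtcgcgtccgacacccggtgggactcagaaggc
MTF2: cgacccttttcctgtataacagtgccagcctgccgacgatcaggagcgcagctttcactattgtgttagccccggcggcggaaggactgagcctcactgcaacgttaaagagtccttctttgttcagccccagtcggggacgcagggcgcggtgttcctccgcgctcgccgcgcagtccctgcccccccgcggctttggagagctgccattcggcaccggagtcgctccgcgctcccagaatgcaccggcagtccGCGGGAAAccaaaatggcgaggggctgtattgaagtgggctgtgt
PHF19: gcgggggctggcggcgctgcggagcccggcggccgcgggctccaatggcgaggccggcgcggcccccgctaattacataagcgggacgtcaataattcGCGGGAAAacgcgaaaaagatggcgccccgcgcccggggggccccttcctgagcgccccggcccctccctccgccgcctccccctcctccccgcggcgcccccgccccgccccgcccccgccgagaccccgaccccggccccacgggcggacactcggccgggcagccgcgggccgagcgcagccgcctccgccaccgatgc
NSD2: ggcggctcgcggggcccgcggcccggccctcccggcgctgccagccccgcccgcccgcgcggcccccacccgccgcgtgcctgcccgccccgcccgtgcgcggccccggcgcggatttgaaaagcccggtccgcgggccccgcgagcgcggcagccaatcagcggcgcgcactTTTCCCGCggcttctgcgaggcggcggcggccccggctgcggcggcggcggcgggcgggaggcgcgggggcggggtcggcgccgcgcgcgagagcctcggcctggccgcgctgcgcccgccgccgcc
The E2F word was TTTGGCGC in EZH2 and, on either strand, TTTCCCGC in MTF2, PHF19 and NSD2. It began 1 base after the start base in EZH2 and 5 bases after it in MTF2, and 152 and 77 bases before it in PHF19 and NSD2. The other window of EZH2 held no E2F word. The E-box word CACGTG, bound by MYC, was present in 1 window, that of KDM6A, against 7.26% of all windows. The GC box word GGGCGG, bound by SP1, was present in 11 of the 14 windows, against 45% of all. GC-rich words are more common in GC-rich windows, and the median GC content was 71.2% in the 14 windows and 58.7% in all. No E2F word overlapped another word searched. A match is a description of the letters and not evidence of binding.

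**Figure D1:**
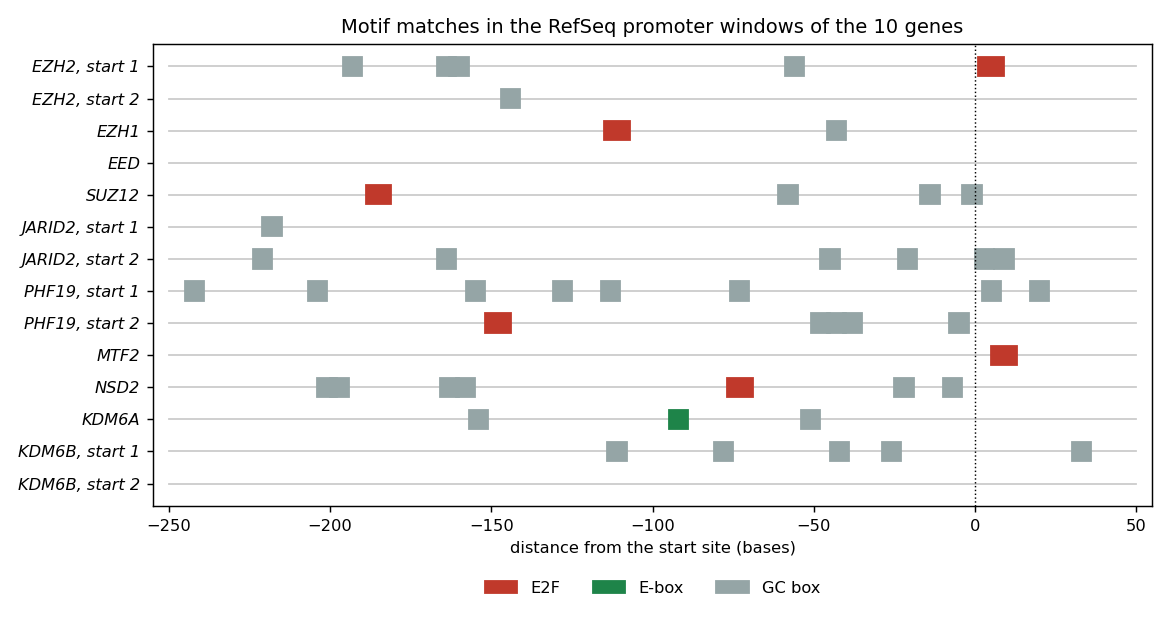
Words matching E2F, E-box and GC box motifs in 14 RefSeq promoter windows of the 10 genes, by distance from the start site in bases. An E2F word is seen in 6 windows, those of EZH2, EZH1, SUZ12, PHF19, MTF2 and NSD2.

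Values below are log2 intensities as deposited, and a level is never set against that of another gene, because probes of different genes are not calibrated to one another. Differences are log2 fold changes ± SE (n = 3 arrays per group), tested with limma, and each p was adjusted for the 15842 genes tested. A gene is said to have risen or fallen where the adjusted p was under 0.05. The lineage was checked by its markers, and all 10 plasma cell and MM.1S markers, MAF among them, lay above the array median on the 3 DMSO arrays. Of 16 measured markers of other cell types, 7 lay at or below it on all 9 arrays. PAX5, CD3E, CSF1R, COL1A1, COL1A2, VWF, CDH5 and HBB lay above it on all 9, and PECAM1 on the DMSO and HL13 arrays only. A level above the median therefore does not by itself mark a lineage. The mean level of the plasma cell list was 10.59 to 10.63 on the DMSO arrays, 9.07 to 9.11 with HL13 and 9.02 to 9.07 with LBH589, and its part in the results was not tested. The list did not move as 1, since 9 markers fell and CD38 rose with either compound. Changes ran from -4.49 (TNFRSF17) to 1.43 (CD38) with HL13, and from -4.56 to 0.65 in the same genes with LBH589. Array medians lay between 5.33 and 5.38.

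Exposure to HL13 raised 4 of the 10 genes and lowered 3, and LBH589 raised 5 and lowered 3. With HL13 the calls were rises of EZH2, EZH1, JARID2 and MTF2 and falls of PHF19, NSD2 and SUZ12, and LBH589 moved the same 7 genes in the same directions and raised KDM6B as well. The comparisons share the 3 DMSO arrays. Changes were widespread in these cells: 58.2% of all genes passed the test with HL13 (29.5% higher, 28.7% lower) and 54.2% with LBH589 (28.1% higher, 26.1% lower). The arrays of the groups did not overlap for 10 of the 10 genes with HL13 and for 8 with LBH589, as for 66.6% and 57.5% of all genes. A share of 7 or 8 in 10 is therefore read as a description of each gene and not as a trait of the group. The median absolute log2 change of the 10 genes was 0.33 with HL13 and 0.18 with LBH589, against 0.17 and 0.15 over all genes. Only PHF19 changed at least 2-fold, which 5.58% of genes did with HL13 and 4.31% with LBH589.

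**Figure D2:**
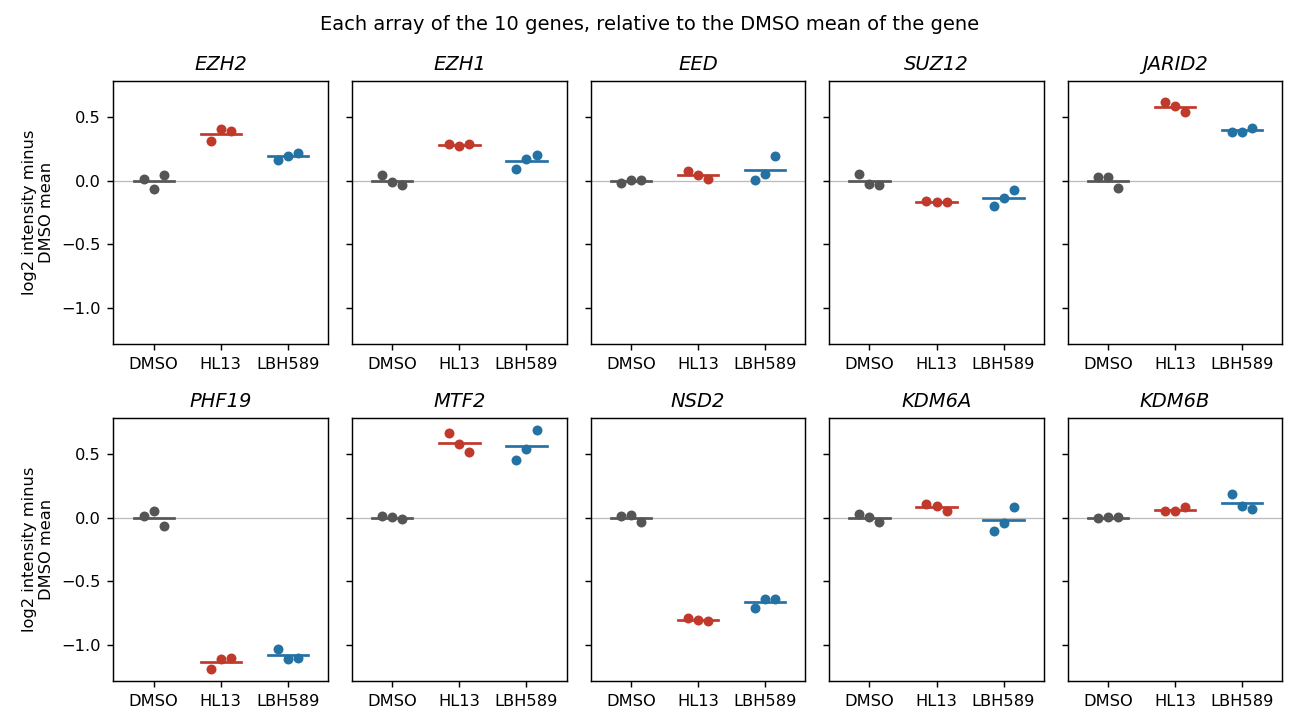
Log2 intensity of each of the 10 genes on the 9 arrays, minus the mean of the 3 DMSO arrays of that gene (points, single arrays; lines, group means). The HL13 and LBH589 arrays of PHF19 and NSD2 lie far below DMSO, and those of MTF2 and JARID2 above it.

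Both catalytic subunits were expressed at higher RNA levels after treatment. EZH2 (transcript cluster TC07001993.hg.1, chromosome 7), the main methyltransferase of dividing cells, measured 9.16, 9.08 and 9.19 on the DMSO arrays. It measured 9.45, 9.55 and 9.53 with HL13 and 9.31, 9.34 and 9.36 with LBH589. The 3 groups did not overlap, with every LBH589 array between DMSO and HL13. The rise was 0.37 ± 0.039 with HL13 (1.29-fold, adjusted p 1.2e-05) and 0.19 ± 0.039 with LBH589 (1.14-fold, adjusted p 0.00158). HL13 exceeded LBH589 by 0.18 ± 0.039 (95% interval 0.089 to 0.26, adjusted p 0.00587). These were moderate shifts, since 28.5% of all genes moved further with HL13 and 42.9% with LBH589.

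EZH1 (TC17001540.hg.1, chromosome 17), the paralog that prevails in resting cells, followed the same order. It measured 8.60, 8.55 and 8.53 with DMSO, 8.85, 8.83 and 8.85 with HL13, and 8.66, 8.73 and 8.76 with LBH589, again without overlap between any groups. It rose by 0.28 ± 0.035 with HL13 (1.22-fold, adjusted p 4.7e-05) and by 0.16 ± 0.035 with LBH589 (1.11-fold, adjusted p 0.00317). The excess of HL13 over LBH589 was 0.12 ± 0.035 (95% interval 0.046 to 0.20, adjusted p 0.0211). That difference did not pass when any HL13 array was left out (adjusted p 0.0538 to 0.0624) or with each array centred on its median (0.0596), the range over all alternatives being 0.00316 to 0.0624.

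The other core subunits did not rise. SUZ12 (TC17000369.hg.1, chromosome 17) measured 10.00, 9.92 and 9.92 with DMSO, 9.79, 9.78 and 9.78 with HL13, and 9.75, 9.81 and 9.87 with LBH589. Both treated groups lay below all DMSO arrays and overlapped each other. SUZ12 fell by 0.16 ± 0.039 with HL13 (1.12-fold, adjusted p 0.00373) and by 0.14 ± 0.039 with LBH589 (1.10-fold, adjusted p 0.0121). Quantile normalization of the deposited values ended both calls, with -0.074 for HL13 (adjusted p 0.0713, range over the alternatives 0.00181 to 0.0713) and -0.040 for LBH589 (adjusted p 0.331, range 0.00379 to 0.331). Without DMSO replicate 1 the value for LBH589 was -0.11 (adjusted p 0.0501). SUZ12 also has a transcribed near-copy on the same chromosome, SUZ12P1, whose own cluster changed by -0.085 ± 0.039 with HL13 (adjusted p 0.0887) and -0.047 ± 0.039 with LBH589 (adjusted p 0.364), and probes that match both could mix their signals.

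EED (TC11000870.hg.1, chromosome 11) measured 6.79, 6.82 and 6.82 with DMSO and 6.89, 6.85 and 6.82 with HL13. With LBH589 it measured 6.82, 6.86 and 7.001, and replicate 3 stood above the rest. The HL13 arrays lay above DMSO by a narrow gap only, 6.822 against 6.815. The differences from DMSO, 0.047 ± 0.046 with HL13 (95% interval -0.055 to 0.15, adjusted p 0.424) and 0.085 ± 0.046 with LBH589 (-0.018 to 0.19, adjusted p 0.154), did not pass the test. Leaving out LBH589 replicate 1 gave 0.12 for LBH589 and a call (adjusted p 0.0424, the lowest of a range that reached 0.443 under other alternatives).

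The accessory subunits PHF19, MTF2 and JARID2 had larger changes than EZH2, EZH1, SUZ12 and EED and went in opposite directions. PHF19 (TC09001540.hg.1, chromosome 9), a Polycomb-like protein whose Tudor domain reads methylated H3K36, measured 7.52, 7.57 and 7.45 on the DMSO arrays. It measured 6.32, 6.40 and 6.41 with HL13 and 6.48, 6.40 and 6.40 with LBH589. All treated arrays lay about as far below the DMSO arrays, and the treated groups overlapped. PHF19 fell by 1.14 ± 0.041 with HL13 (2.20-fold, adjusted p 3.7e-09) and by 1.08 ± 0.041 with LBH589 (2.12-fold, adjusted p 6.5e-09). No more than 4.05% of genes moved further with HL13 and 3.46% with LBH589. The difference between the compounds, -0.052 ± 0.041 (95% interval -0.14 to 0.041, adjusted p 0.405), did not pass.

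MTF2 (TC01000859.hg.1, chromosome 1), the close paralog of PHF19 that binds unmethylated CpG-rich DNA, moved up instead. It measured 7.37, 7.36 and 7.35 with DMSO, 8.03, 7.94 and 7.87 with HL13, and 7.81, 7.90 and 8.05 with LBH589. All 6 treated arrays were above DMSO, with a wider spread among them (SD 0.078 with HL13 and 0.12 with LBH589, against 0.0094 with DMSO). The rise was 0.59 ± 0.059 with HL13 (1.5-fold, adjusted p 8.3e-06) and 0.56 ± 0.059 with LBH589 (1.47-fold, adjusted p 1.4e-05). HL13 and LBH589 differed by 0.026 ± 0.059 (95% interval -0.11 to 0.16, adjusted p 0.796).

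JARID2 (TC06000104.hg.1, chromosome 6), a DNA-binding subunit related to demethylases but without their activity, measured 8.30, 8.30 and 8.21 with DMSO. Its values were 8.89, 8.86 and 8.81 with HL13 and 8.66, 8.66 and 8.69 with LBH589, and the 3 groups did not overlap. It rose by 0.58 ± 0.036 with HL13 (1.5-fold, adjusted p 1.7e-07) and by 0.40 ± 0.036 with LBH589 (1.32-fold, adjusted p 4.0e-06). Of the 10 genes it had the largest difference between the compounds, 0.19 ± 0.036 higher with HL13 (95% interval 0.11 to 0.27, adjusted p 0.00252).

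NSD2 (TC04000030.hg.1, chromosome 4) was the other gene with a marked fall. It measured 8.68, 8.69 and 8.63 with DMSO, 7.88, 7.86 and 7.85 with HL13, and 7.96, 8.03 and 8.03 with LBH589. No groups overlapped, and HL13 was lowest on every array. NSD2 fell by 0.80 ± 0.032 with HL13 (1.75-fold, adjusted p 6.5e-09) and by 0.66 ± 0.032 with LBH589 (1.58-fold, adjusted p 3.6e-08). Larger changes were seen in 8.90% of genes with HL13 and 10.6% with LBH589. HL13 was lower than LBH589 by a log2 difference of -0.14 ± 0.032 (95% interval -0.21 to -0.071, adjusted p 0.00634). FGFR3, the receptor gene that is activated together with NSD2 by the translocation in other myelomas, was at 7.06 ± 0.014 (SD, n = 3) with DMSO and rose by 0.15 with HL13 (adjusted p 0.0138), while its value of 0.075 with LBH589 (adjusted p 0.194) did not pass.

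The demethylase genes moved little. KDM6A (TC0X000212.hg.1, chromosome X), also called UTX, measured 8.34, 8.32 and 8.28 with DMSO, 8.42, 8.41 and 8.36 with HL13, and 8.21, 8.27 and 8.40 with LBH589. HL13 lay just above DMSO, while the LBH589 arrays spread over the whole range. Its differences from DMSO were 0.084 ± 0.047 with HL13 (95% interval -0.022 to 0.19, adjusted p 0.162) and -0.022 ± 0.047 with LBH589 (-0.13 to 0.083, adjusted p 0.75). For HL13 the call depended on the processing, and it passed at 0.16 with quantile normalization (adjusted p 0.00528). At an unaltered 0.084 it passed with only the HL13 and DMSO arrays in the fit (standard error 0.027, adjusted p 0.0322). The same value passed without LBH589 replicate 3 (standard error 0.030, adjusted p 0.0402), and the adjusted p ran from 0.00528 to 0.45 across all alternatives. The difference between the compounds, 0.11 ± 0.047 (adjusted p 0.122), passed without the same replicate (0.16, adjusted p 0.00681) and with quantile normalization (0.13, adjusted p 0.0236), over a range of 0.00681 to 0.309.

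KDM6B (TC17000117.hg.1, chromosome 17), the inducible demethylase also called JMJD3, measured 6.72, 6.72 and 6.73 with DMSO, 6.77, 6.78 and 6.81 with HL13, and 6.91, 6.81 and 6.79 with LBH589. All treated arrays were slightly above DMSO. The change was 0.063 ± 0.035 with HL13 (95% interval -0.015 to 0.14, adjusted p 0.153), which did not pass, and a rise of 0.11 ± 0.035 with LBH589 (0.037 to 0.19, adjusted p 0.017), which did. The compounds themselves differed by -0.051 ± 0.035 (-0.13 to 0.026, adjusted p 0.316), so the 2 effects are not shown to differ. With only the arrays of HL13 and DMSO in the fit, the value for HL13 passed as well (adjusted p 0.0384, range over the alternatives 0.0384 to 0.754).

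**Figure D3:**
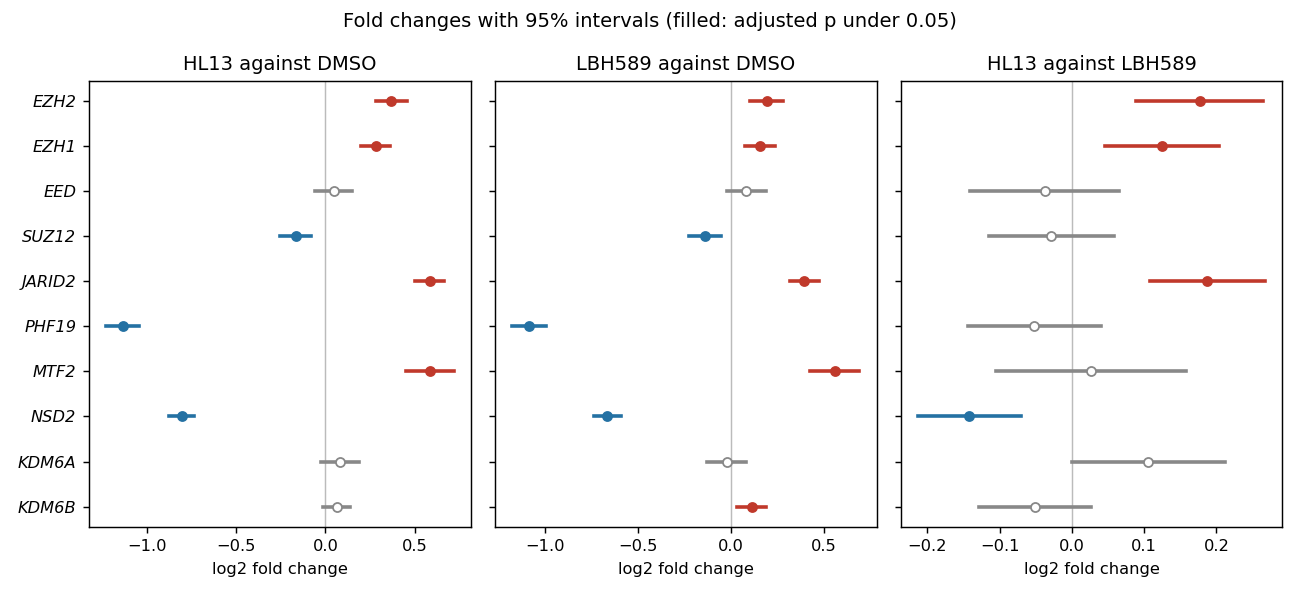
Log2 fold changes of the 10 genes with 95% intervals from limma in the 3 comparisons (filled points, adjusted p under 0.05), with a narrower x axis for HL13 against LBH589. PHF19 and NSD2 show the largest falls and JARID2 and MTF2 the largest rises, while EZH2, EZH1, JARID2 and NSD2 differ between the compounds.

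At the equal dose of 5 nM and the same time, HL13 and LBH589 differed for 4 of the 10 genes, against 32.6% of all genes. The 4 were EZH2, EZH1 and JARID2, which were higher with HL13, and NSD2, which was lower, and in each the change from DMSO was larger with HL13. The arrays of the compounds did not overlap for these 4 genes, as for 42.3% of all genes. For SUZ12 the difference was -0.029 (95% interval -0.12 to 0.058) and for EED -0.038 (-0.14 to 0.065), neither of which passed.

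Other PRC2 genes, namely further subunits and the inhibitor EZHIP, gave 3 falls and 0 rises among 6 tested with either compound. Over all genes 28.7% fell and 29.5% rose with HL13, and 26.1% and 28.1% with LBH589. RBBP4, a histone-binding core subunit shared with other complexes, fell by 0.48 ± 0.032 with HL13 (adjusted p 2.9e-07) and by 0.50 ± 0.032 with LBH589 (adjusted p 2.7e-07). RBBP7, its paralog, fell by 0.12 with either compound, and AEBP2, a partner of JARID2, by 0.14 with HL13 and 0.11 with LBH589. PHF1, the remaining Polycomb-like gene, was at 0.044 ± 0.055 with HL13 (adjusted p 0.544) and -0.0013 with LBH589 (adjusted p 0.988), so of the Polycomb-like trio 1 fell, 1 rose and 1 did not pass. With all clusters of a gene averaged, 1 of the 6 rose with either compound. None of the 6 passed between HL13 and LBH589, where 32.6% of all genes did.

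PRC1, the complex that binds the H3K27 mark or places ubiquitin on histone H2A, had 6 rises and 6 falls among 15 tested genes with either compound, beside 29.5% higher and 28.7% lower over all genes with HL13, and 28.1% and 26.1% with LBH589. RYBP, a subunit of variant PRC1, rose by 0.95 ± 0.045 with HL13 and by 0.54 ± 0.045 with LBH589, and PHC1 rose by 0.61 and 0.52. BCOR, a corepressor in variant PRC1 as well, fell by 0.65 ± 0.034 and 0.87 ± 0.034. RYBP and BCOR were the 2 of the 15 that differed between the compounds, both higher with HL13. Over all genes 32.6% differed and 15.7% were higher with HL13. ASXL1 and ASXL2, cofactors of the enzyme that removes ubiquitin from H2A, were the 2 genes tested of that complex. Both fell, ASXL1 by 0.29 with HL13 and 0.41 with LBH589, where 28.7% and 26.1% of all genes fell. Without the filter on low values 3 genes of the complex were tested, and 1 of them rose with HL13.

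In the KMT2C and KMT2D complex, which contains KDM6A and methylates H3K4, 1 gene rose and 4 fell among 7 with either compound (2 rose with quantile normalization), beside the same shares over all genes. WDR5, a scaffold subunit, fell by 0.95 ± 0.035 with HL13 and by 0.51 ± 0.035 with LBH589. NCOA6, a coactivator in the complex, fell by 0.69 and 0.55, whereas RBBP5 rose by 0.66 and 0.86. Between the compounds 4 of the 7 were lower with HL13, namely KMT2D, NCOA6, WDR5 and RBBP5, against 16.9% of all genes. KMT2D was picked out for this after its values were seen. CREBBP, an acetyltransferase of H3K27, fell by 0.90 ± 0.043 with HL13 and by 0.92 ± 0.043 with LBH589.

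Among 14 other genes of H3K36 methylation, 5 rose and 5 fell with HL13, and 4 rose and 7 fell with LBH589. Over all genes 29.5% rose and 28.7% fell with HL13, and 28.1% and 26.1% with LBH589, so the counts with HL13 lie near the background. NSD1, a paralog of NSD2, fell by 0.67 ± 0.030 with HL13 (adjusted p 1.6e-08) and by 0.85 ± 0.030 with LBH589 (adjusted p 3.8e-09), and was higher with HL13 than with LBH589 by 0.18 (adjusted p 0.00108), the reverse of NSD2. The other paralog, NSD3, was at -0.061 ± 0.047 (adjusted p 0.312) and 0.034 ± 0.047 (adjusted p 0.612). ZMYND11, a reader of methylated H3K36, fell by 1.54 ± 0.040 and 1.47 ± 0.040. SMYD2, a lysine methyltransferase, fell by 0.69 ± 0.035 with HL13 and by 1.5 ± 0.035 with LBH589, a difference of 0.81 (adjusted p 3.5e-07).

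Enzymes of other histone methyl marks were mixed, with 4 rises and 10 falls among 22 for HL13 and 6 and 8 for LBH589, beside 29.5% higher and 28.7% lower over all genes with HL13, and 28.1% and 26.1% with LBH589. KDM5B, a demethylase of H3K4, rose by 2.45 ± 0.033 and 2.35 ± 0.033, and KDM1B by 1.07 and 0.92. SUV39H1, a methyltransferase of H3K9, fell by 1.01 with either compound. Subunits of SWI/SNF, the nucleosome remodeller that opposes Polycomb, fell in 15 of 18 cases with HL13 and in 12 of 18 with LBH589, against 28.7% and 26.1% of all genes. Their median log2 change was -0.41 and -0.38, beside 0.0076 and 0.013 over all genes. ARID1A fell with both compounds (-1.38 ± 0.049 with HL13 and -1.25 ± 0.049 with LBH589), as did ARID2 (-1.19 and -0.95) and SMARCB1 (-0.94 and -1.02). The 2 that rose were SMARCD3 and SS18 with HL13, and SMARCD3 and BRD7 with LBH589. Leaving out DMSO replicate 2 or 3, any HL13 array or LBH589 replicate 2 left 1 rise with HL13, and 4 rose with LBH589 without LBH589 replicate 1.

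Most factors known to act on the EZH2 gene fell, and whether they act on it in these cells was not tested. E2F2 fell by 2.20 ± 0.031 with HL13 and 2.01 ± 0.031 with LBH589, and E2F3 by 0.99 ± 0.042 and 0.65 ± 0.042. MYC fell as well (-1.85 ± 0.031 with HL13 and -1.48 ± 0.031 with LBH589), and RB1, the restrainer of E2F factors, rose by 0.52 ± 0.057 and 0.42 ± 0.057. In all, 4 of these 5 genes fell and 1 rose with either compound, while EZH2 RNA rose. Over all genes 28.7% fell and 29.5% rose with HL13, and 26.1% and 28.1% with LBH589. The remaining gene, E2F1, fell by 0.55 with HL13 and by 0.48 with LBH589. E2F2, E2F3 and MYC were lower with HL13 than with LBH589 (adjusted p at most 8.4e-04), and EZH2 was higher. The differences between the compounds in E2F1 (-0.061, adjusted p 0.265) and RB1 (0.11, adjusted p 0.185) did not pass.

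Of 55 genes known as PRC2 targets in other cells, HOX genes for the most part, 39 were in the table and 26 passed the filter. Among the 26, 8 rose and 0 fell with HL13, and 5 rose and 1 fell with LBH589. Over all genes 29.5% rose and 28.7% fell with HL13, and 28.1% and 26.1% with LBH589. The rises with HL13 thus lie near the background share, while falls were fewer with either compound. Their median log2 change was 0.069 with HL13 and 0.015 with LBH589. SLIT2, a secreted guidance cue, rose by 1.61 ± 0.046 and 1.30 ± 0.046, and the cell cycle inhibitor gene CDKN2B by 0.45 ± 0.065 and 0.37 ± 0.065. CDKN1C rose with HL13 by 0.29 ± 0.051 and was at 0.10 ± 0.051 with LBH589 (adjusted p 0.126). KLF2, a transcription factor of quiescence, rose by 0.22 ± 0.055 with HL13 and fell by 0.29 ± 0.055 with LBH589, and the compounds differed by 0.51 (adjusted p 7.0e-05). Whether any of these genes carries the mark in MM.1S was not measured. The count of 5 rises with LBH589 rested on single arrays, being 2 without DMSO replicate 1 or without LBH589 replicate 1, and 3 without DMSO replicate 2 or without LBH589 replicate 2.

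**Figure D4:**
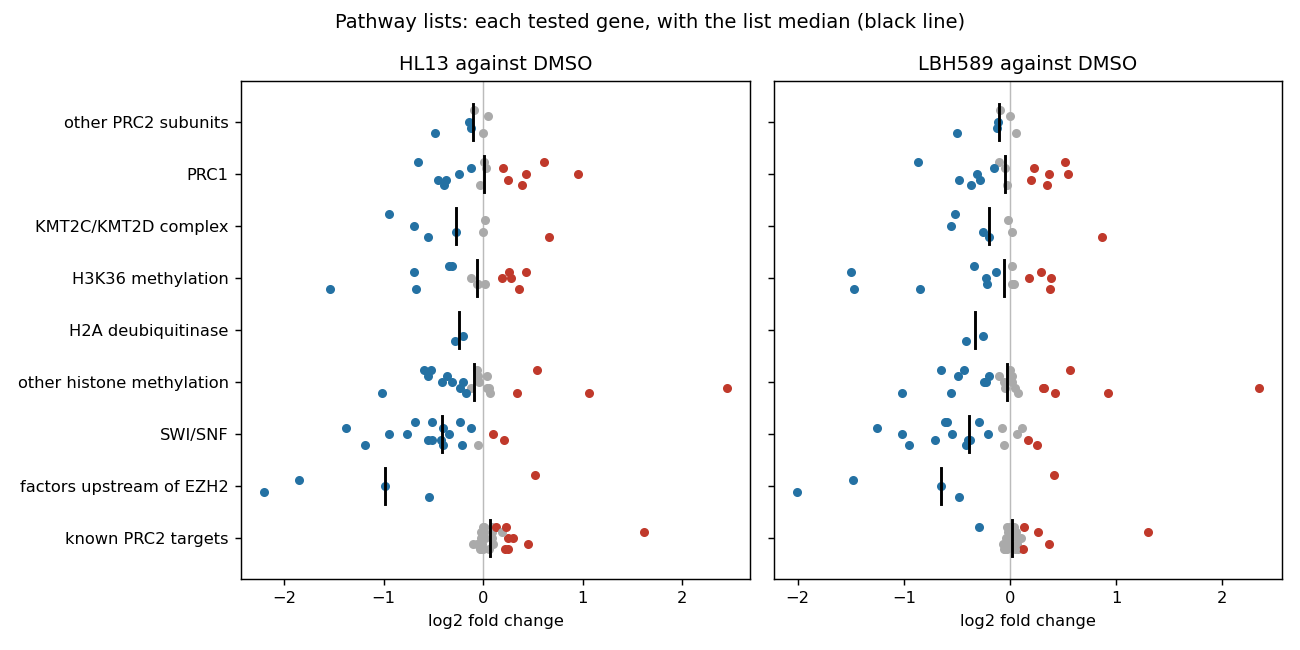
Log2 fold changes of the tested genes of 9 related lists with HL13 and with LBH589 against DMSO (red, risen; blue, fallen; grey, not passing; black line, list median). The SWI/SNF median lies at -0.41 and -0.38. Most known PRC2 targets, several of them with levels little above the array median, lie near 0.

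Genes whose values followed those of a member most closely were sought over the 9 arrays by Pearson's r. Left out of the search and its counts were XIST and symbols that start with LOC or LINC or hold a hyphen or orf. The arrays form 3 groups, so any gene with a like order of group means scores high, and 396 genes exceeded r = 0.95 with EZH2, 988 with JARID2, 1618 with NSD2 and 1703 with PHF19. NSD2 was closest to the RNA-binding protein gene SYNCRIP (0.9997), the exportin gene XPO4 (0.9990) and SUPT16H, a subunit of the histone chaperone FACT (0.9989). PHF19 was closest to SEMA4A (0.9992), the splicing factor gene U2AF2 (0.9991) and SASH3 (0.9990). JARID2 was closest to the cadherin gene CDH2 (0.997), SDCBP (0.996) and ETFDH (0.996). EZH2 had ZNF25 (0.987), SDHAF4 (0.986) and ZNF711 (0.986) as its nearest.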

How the data were processed

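Total RNA of MM.1S cells was, per the labels, fragmented, labelled with biotin by a whole-transcript kit and hybridised to Affymetrix arrays, whereas the published methods speak of RNA sequencing. Values were used as the authors deposited them, on a log2 scale, for every transcript cluster on every array. Summarisation and normalization are not given in the sources used here, and a shift common to most genes may have been removed by it. Of 70523 clusters, 23781 carried exactly 1 symbol. A cluster was kept if it lay above the array median on at least 3 of 9 arrays, and the cluster with the highest mean represented a gene. All 9 arrays were fitted with a mean per group (limma 3.58.1, R 4.3.3, lmFit and eBayes, two-sided) and p values were adjusted by Benjamini-Hochberg over 15842 genes. The methods give no test for arrays. Code was tested on simulated data with known changes. Precision is limited by the number of arrays (median SE over genes 0.043). The members and lists were chosen with earlier results of these data known, so no list was tested as a set. Named genes are all members, up to 3 genes of a list with the largest calls in each treatment, and the 3 most similar genes of EZH2 and of the members with the 3 largest F statistics. Cell type markers, FGFR3 and SUZ12P1 are named besides. Outside this rule are PHF1, EZHIP, NSD3, E2F1, RB1, KMT2D, SMARCD3, SS18, BRD7, HOXB1 and HOXB2. Alternatives changed the normalization, the filter on dim probes, the choice of cluster, the variance model, the samples in the fit and the block, or left out each array in turn.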

Additional observations from a re-analysis of the deposited data

How the results depend on the processing

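Each member was refitted in 3 comparisons under 17 alternatives, 510 results in all, of which 488 kept their direction and side of the threshold, 8 lost the call, 7 gained one and 7 changed sign. EZH2, EZH1, JARID2, PHF19, MTF2 and NSD2 kept every call against DMSO, and KDM6B kept its call with LBH589. The sign changed only for values that did not pass, namely EED (-9.24e-05) for HL13 and KDM6A (0.023) for LBH589, both against DMSO with quantile normalization. With single arrays left out, KDM6A ranged from -0.077 to 0.021 for LBH589 (positive without LBH589 replicate 1). Between the compounds EED ranged from -0.075 to 0.017 and SUZ12 from -0.059 to 0.0015 (both positive without LBH589 replicate 3), and MTF2 from -0.028 to 0.092 (negative without LBH589 replicate 1 and, at -0.015, without HL13 replicate 1). The numbers of members called stayed within 7 to 9 for HL13, 7 to 9 for LBH589 and 3 to 5 between the compounds. The replicate numbers did not pair the arrays: deviations of same-numbered arrays correlated at -0.30 to 0.061, and not every array was closest to its own number. With the replicate block, 7, 8 and 3 members were called and 8840, 8220 and 4442 genes, against 9221, 8588 and 5172 without it, and the single member call it ended was EZH1 between the compounds (adjusted p 0.0588), while known PRC2 targets that rose with LBH589 went from 5 to 3. The alternatives on several clusters of a gene could not alter a member, since each has 1, and no cluster joined a member with other symbols.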
